A study of Mus musculus with 11 samples.

Results

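The stretch of mouse chromosome 1 from 120200001 to 120670000 in mm9 is the Clasp1 to Tfcp2l1 end of a region captured for Hi-C. It spans 470 kb, or 47 of the 420 bins of 10 kb in the captured region, which runs to 124400000. Its members are the bin pairs with both bins starting from 120200001 to 120660001. These are 1128 of the 88410 bin pairs of a map (1.28%), including 47 pairs of a bin with itself. They were chosen by position, with an end selected on measured values, since the boundary at 120670001 that closes the interval was found in the KR signal of these same maps. The existence of a boundary there is therefore given below as a description and not as a finding.

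Capture Hi-C records how often a pair of loci lay close together in the nuclei of a tissue. Crosslinked chromatin is cut, religated and enriched with baits for a chosen region, and each sequenced chimeric read pair is counted as a contact. Contacts become rarer with distance along the chromosome, are more frequent within topologically associating domains, and are depleted across the boundaries between domains. A pair of loci with more contacts than others at the same distance appears as a spot in the map, and a locus that contacts a whole stretch appears as a stripe.

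The libraries came from forelimb, forebrain and midhindbrain boundary of mouse embryos at embryonic day 9.5. The tissues were wild type with 3 libraries each in 3 groups, and the remaining group was forelimb of mutants with an inserted stop cassette, with 2 libraries, which gives 11 libraries in all. The strain field of every library names the cross c57bl6.J X 129S6.sv, but in the titles a CD1 tag marks the wild-type forelimb libraries and no others. The position of the cassette, its zygosity and the number of embryos per library are not given in the sources used here, and the dissection protocol also mentions a later stage beside day 9.5. The replicates of each group were merged into 1 map before deposition, so that no value below has a replicate error. Every test compares the reads of 1 merged map with those of another, not the conditions. In the comparison of the forelimb maps, the cassette, the strain tag and the library series cannot be told apart. Likewise, in the comparisons of wild-type forelimb with either brain tissue, the tissue, the strain tag and the library series cannot be told apart.

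The 2 genes that name the interval were both found in the RefSeq gene table of GRCm38.p6. Clasp1 encodes a microtubule plus-end binding protein, and Tfcp2l1 encodes a transcription factor of the CP2 family that is known from pluripotent stem cells and kidney tubules. On the chromosome the protein-coding order is Tsn, Nifk, Clasp1, Tfcp2l1 and Gli2, the last a transcription factor of Hedgehog signalling. The snoRNA Gm26080, the lncRNA 2900060B14Rik and the pseudogene LOC115487679 start between the start of Clasp1 and the end of Tfcp2l1. No genes were placed in bins, because the maps are in mm9 and the gene table is in another build.

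The promoter of Tfcp2l1 is shown to identify the gene whose upstream sequence the RefSeq promoter table holds for this interval. The 228 bases lie at chr1:118627695-118627922 on the plus strand of GRCm38.p6 and end just before the annotated start of the gene. A TATAAA match at its end is in capitals, 6 bases before that start.

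Tfcp2l1: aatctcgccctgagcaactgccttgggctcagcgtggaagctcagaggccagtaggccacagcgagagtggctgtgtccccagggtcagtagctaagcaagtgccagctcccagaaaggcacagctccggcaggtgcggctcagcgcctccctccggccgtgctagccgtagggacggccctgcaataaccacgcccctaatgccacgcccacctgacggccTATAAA

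The bases printed have a GC content of 63.6%. TATAAA was searched on both strands and was found in 13.6% of the 32851 promoters of 300 bases in the table. The 300-base entry of Tfcp2l1 holds no GATC, the sequence cut by the DpnII used here. Of the 32851 promoters of 300 bases, 48.0% hold at least 1. These matches describe the letters alone, and the sequence was not placed in any bin of the maps.

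The interval held 749383 contacts in wild-type forelimb, 797992 in wild-type forebrain, 818554 in wild-type midhindbrain boundary and 645546 in the mutant forelimb map. These were 8.49%, 8.41%, 8.60% and 8.43% of the contacts of each map, so that the maps gave nearly the same share to it. Most contacts were short, and the 990 bin pairs at 30 kb or more held 342041, 312265, 321570 and 248097 contacts in the same order. The median of these pairs was 252.5, 227.5, 235 and 178.5 contacts, the lowest was 21, 20, 19 and 15, and none was empty. Contacts within a bin numbered 199293 in wild-type forelimb, 278965 in wild-type forebrain, 273704 in wild-type midhindbrain boundary and 226261 in stop-cassette forelimb, lowest in the wild-type forelimb map. The thinnest bins were 120480001, with 10485, 10761, 10968 and 7897 contacts, and 120270001, with 14572, 13951, 14805 and 12865. In all 4 maps the bin at 120480001 ranked among the 7 lowest of the 420 bins.

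Levels are given below as Knight-Ruiz (KR) signal, in which every count is divided by a factor for each of its bins so that all bins of a map have the same sum. Bins at the start of the captured region have captured neighbours on 1 side alone, so equal sums assign them more signal per neighbour. For this reason the 47 bins at the opposite end of the captured region (123930001 to 124400000) are given beside the interval, and the part of the edge in its levels was not tested.

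Contacts fell with distance inside the interval at close to the rate of the whole captured region. From 30 to 300 kb the slope of log10 mean KR signal on log10 distance was -0.84 in wild-type forelimb, -0.87 in wild-type forebrain, -0.88 in wild-type midhindbrain boundary and -0.84 in stop-cassette forelimb, with counting SDs of 0.0040 to 0.0047. Over the whole map it was -0.80, -0.79, -0.82 and -0.83. Among all 374 stretches of 47 bins, 157, 122, 124 and 171 had a steeper slope, which places the interval on the steeper side of the middle in every map. The adjacent interval across the boundary (120670001 to 120980000, 31 bins) had flatter slopes over this range, of -0.40, -0.43, -0.44 and -0.43. From 30 to 100 kb alone its slopes were -0.80, -0.74, -0.81 and -0.84, close to those of the interval given below. From 100 to 200 kb they were -0.42, -0.53, -0.48 and -0.45. From 200 to 300 kb, where its first bins meet its last, they were positive, at 1.40, 1.30, 1.28 and 1.43.

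The rate of decay changed with distance. From 30 to 100 kb the local slope was -0.77, -0.78, -0.83 and -0.81 in wild-type forelimb, wild-type forebrain, wild-type midhindbrain boundary and stop-cassette forelimb. From 100 to 200 kb it was -0.75, -0.74, -0.73 and -0.67. From 200 to 300 kb it steepened to -1.14, -1.28, -1.29 and -1.17, against -0.84 over the whole wild-type forelimb map. Beyond the range of the single slope, from 300 to 460 kb, the decay stopped, with slopes of 0.17, 0.37, 0.13 and 0.40 and counting SDs of about 0.10, while the whole maps kept falling with slopes of -1.0, -0.96, -0.98 and -0.94. The 95% counting intervals of the longest range include 0 in wild-type forelimb (-0.026 to 0.363) and in wild-type midhindbrain boundary (-0.063 to 0.331). At the opposite end of the captured region the slopes from 300 to 460 kb were -0.59, -0.65, -0.57 and -0.34, with counting SDs of 0.16 to 0.18. That end was thus also flatter than the whole maps, though it kept falling.

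Against the mean of the whole map at the same distances, the interval was enriched in contacts in every distance band of all 4 maps. The interval was closed at a boundary found in these maps, whereas the map mean includes pairs that cross boundaries. The part of this choice in the excess was not tested. The excess on the log2 scale was 0.30, 0.28, 0.28 and 0.27 at 30 to 100 kb, in the same order of maps. It was 0.40, 0.35, 0.37 and 0.42 at 110 to 200 kb. At 210 to 300 kb it dropped to 0.20, 0.08, 0.13 and 0.24, with wild-type forebrain lowest and stop-cassette forelimb highest. The same order of maps held at 310 to 400 kb, at 0.22, 0.05, 0.12 and 0.31 with counting SDs of 0.013 to 0.015. The largest excess was that of the 21 pairs at 410 to 460 kb, which join the first bins with the last, at 0.70, 0.53, 0.55 and 0.81. The opposite end of the captured region had 0.45, 0.38, 0.37 and 0.42 in that band. It too was above the map mean in the other bands from 30 kb. There it had 0.18, 0.17, 0.16 and 0.19 at 30 to 100 kb, and 0.15, 0.14, 0.14 and 0.11 at 110 to 200 kb. It had 0.24, 0.25, 0.21 and 0.17 at 210 to 300 kb, and 0.32, 0.29, 0.28 and 0.24 at 310 to 400 kb. From 210 to 400 kb it thus exceeded the interval in the wild-type maps, but not in stop-cassette forelimb.

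**Figure D1:**
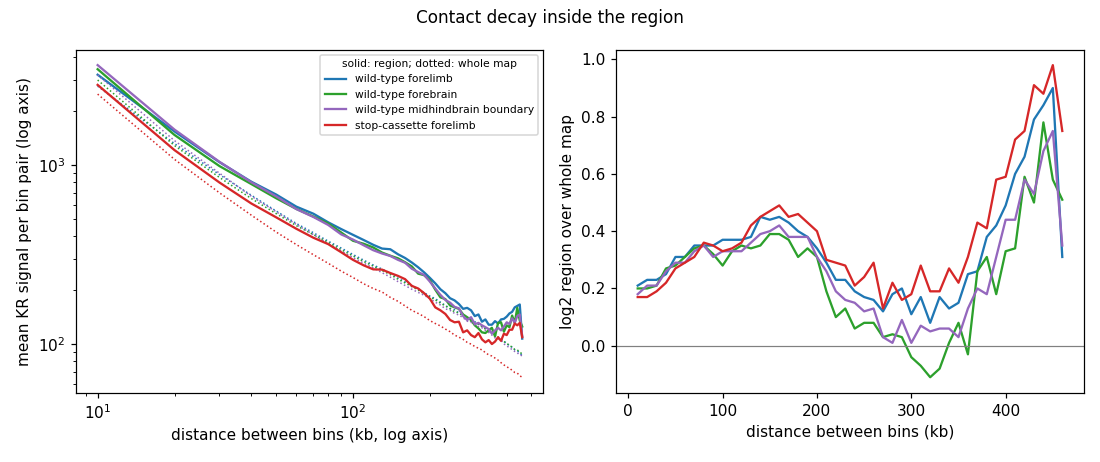
The left panel plots mean KR signal per bin pair against distance (both axes logarithmic) inside the interval (solid) and over the whole map (dotted), and the right panel plots their log2 ratio against distance in kb. The ratio rises to 0.39 to 0.49 at 160 kb, sinks between 200 and 360 kb, where it goes below 0 in wild-type forebrain alone, and rises again at the longest distances, where few pairs remain.

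For description the interval was split into a pair of sub-intervals, at the insulation minimum inside it that passed in all 4 maps with a 100 kb square. The insulation score, computed as the log2 of the mean KR signal where up to 100 kb on each side of a bin edge meet, relative to the map's mean, had a minimum at 120400001 in all 4 maps. Its score there was 0.02 in wild-type forelimb, -0.05 in wild-type forebrain, 0.05 in wild-type midhindbrain boundary and 0.00 in the mutant forelimb map. This minimum lay 0.38, 0.52, 0.34 and 0.29 below the lower of the highest scores on its sides, deepest in wild-type forebrain and shallowest in stop-cassette forelimb. The scores near the mean show a dip between strongly connected flanks, not a depletion like that at the end of the interval. A second minimum passed at 120480001 in wild-type forelimb (score 0.08, depth 0.32) and wild-type midhindbrain boundary (score 0.04, depth 0.35), at the edge of the bin with the fewest contacts. In wild-type midhindbrain boundary it was slightly lower and deeper than the minimum at 120400001. Between these edges the score rose no higher than 0.15, 0.10, 0.18 and 0.16 in the 4 maps, at 120460001. The dip was thus broad, and its split at 120400001 is a choice. With a 50 kb square the edge at 120480001 passed in the other two maps, wild-type forebrain (depth 0.31) and stop-cassette forelimb (depth 0.20), while wild-type forelimb and midhindbrain boundary had a minimum at 120510001 (depth 0.23 in both). The edge at 120400001 passed with that square in wild-type forebrain alone. With a 200 kb square no edge inside the interval passed. That square cannot decide on 120400001, which is the first edge it can score and so could not be called.

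The 20 bins before 120400001 and the 27 bins from there to the end differed in how densely they were connected. At 30 to 190 kb the first sub-interval had a log2 observed over expected KR signal, where expected is the map mean at the same distance, of 0.64, 0.62, 0.58 and 0.66 in wild-type forelimb, wild-type forebrain, wild-type midhindbrain boundary and stop-cassette forelimb. The second sub-interval had 0.23, 0.24, 0.22 and 0.16, with counting SDs of 0.0044 to 0.0054. Contacts between them stood near the map mean, at 0.05, -0.06, 0.07 and 0.10. Wild-type forebrain had the lowest value between the sub-intervals and stop-cassette forelimb the highest. Because the split was found in these maps, these values are a description without a test. The first sub-interval touches the edge of the captured region, whose part in its level was not tested.

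**Figure D2:**
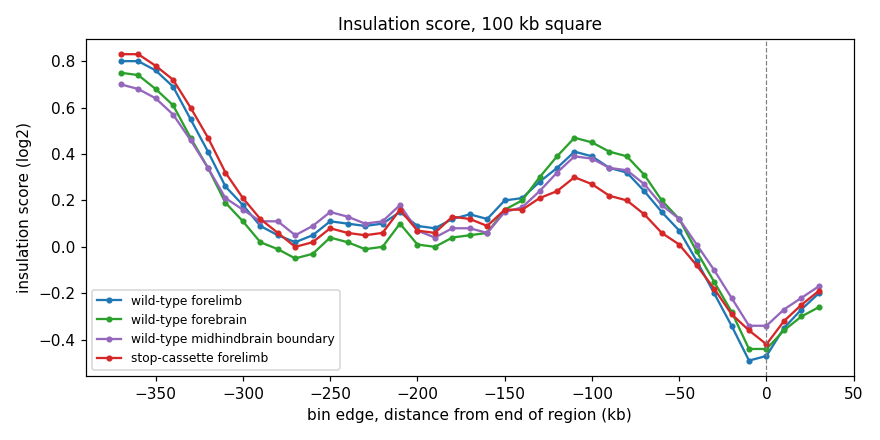
Insulation score (log2) with a 100 kb square at each bin edge, plotted against distance from the end of the interval in kb (dashed line at 0) for the 4 maps. The scores fall from the start to a shallow trough 270 to 190 kb before the end. They rise to a shoulder 110 kb before the end that is lowest in stop-cassette forelimb (0.30 against 0.39 to 0.47), and reach their lowest values at the end.

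At the end of the interval the minimum with a 100 kb square lay at 120660001 in the 3 wild-type maps, with scores of -0.49, -0.44 and -0.34 in forelimb, forebrain and midhindbrain boundary, although both brain maps had the same score to 2 decimals at the next edge. The mutant forelimb map had it at that next edge, 120670001, with a score of -0.42. With a 200 kb square all 4 minima lay at 120670001, with scores of -0.38, -0.30, -0.20 and -0.31. The edge at 120660001 also gave the largest difference in insulation between the forelimb maps among the 37 edges scored inside, with -0.36 in the mutant and -0.49 in the wild-type map. Wild-type forelimb and midhindbrain boundary, at -0.49 and -0.34, differed by about as much at this edge. The median absolute difference between the forelimb maps was 0.04 inside the interval and 0.04 over all 401 edges, and between wild-type forelimb and forebrain it was 0.07 inside and 0.03 over all edges.

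The direction of contacts changed over a few bins at that end. The bin at 120650001 had a log2 ratio of KR signal towards the start over KR signal towards the end, at 30 to 200 kb, of 1.12 in wild-type forelimb, 1.25 in wild-type forebrain, 0.97 in wild-type midhindbrain boundary and 0.83 in the mutant forelimb map. For 120660001, the last bin of the interval, it was 0.06, 0.21, 0.27 and 0.09. At 120670001 it was -0.43, -0.15, -0.12 and -0.35. The bin at 120650001 thus faced the interval in all maps. The last bin was close to balanced in the forelimb maps and leaned towards the start in the brain maps. The first bin beyond it faced away in the forelimb maps and only weakly so in the brain maps. Both forelimb maps were more negative at 120670001 than both brain maps, with counting SDs of 0.027 to 0.032.

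Inside the interval the contacts were unevenly distributed around the expected level. The median log2 observed over expected of the 990 pairs at 30 kb or more was 0.22 in wild-type forelimb, 0.13 in wild-type forebrain, 0.15 in wild-type midhindbrain boundary and 0.21 in stop-cassette forelimb, against -0.04, -0.05, -0.03 and -0.04 for all pairs of the maps at these distances. Pairs at 2-fold or more of the expected signal numbered 52, 51, 42 and 67, or 5.25%, 5.15%, 4.24% and 6.77% of the pairs, against 1.76%, 1.91%, 1.59% and 1.45% over the whole maps. Of the 85 pairs that reached 2-fold in any map, 29 did so in all 4. No pair lay at 0.5 times the expected signal or less in any map, whereas 4.64%, 5.54%, 5.57% and 3.63% of all pairs did. All pairs of a map include those that cross boundaries, and the part of this in the shares was not tested. The SD of log2 observed over expected among the pairs was 0.40, 0.45, 0.38 and 0.42, while it was 0.33, 0.33, 0.31 and 0.31 in the adjacent interval and 0.21, 0.21, 0.21 and 0.23 at the opposite end.

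**Figure D3:**
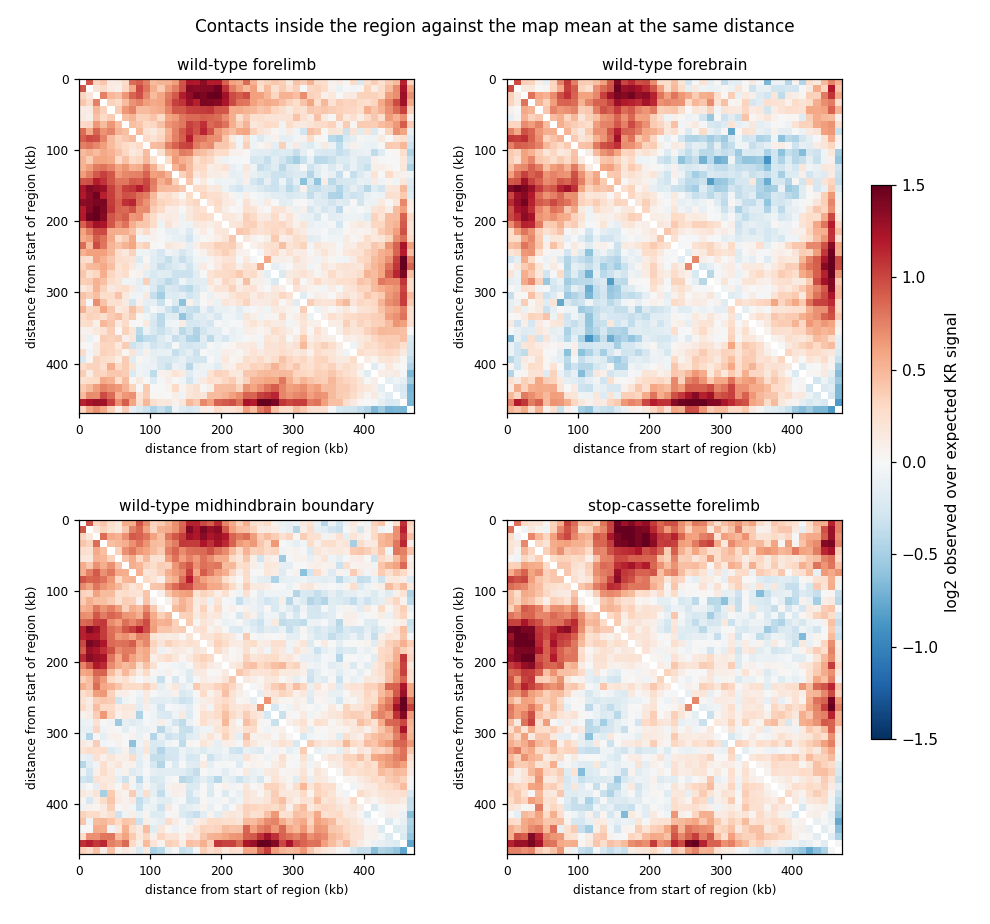
Log2 observed over expected KR signal of the bin pairs inside the interval in the 4 maps, with both axes in kb from its start; red is above and blue below the map mean at the same distance. Each map shows a red block joining the first 100 kb with 130 to 210 kb, a vertical stripe 450 kb from the start with its strongest spot at 260 kb, and a paler blue block between them.

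The strongest spot joined 120460001 and 120650001, 190 kb apart. It held 802 contacts in wild-type forelimb, 1078 in wild-type forebrain, 951 in wild-type midhindbrain boundary and 487 in stop-cassette forelimb. Its KR signal was 620, 822, 730 and 429, against 193, 190, 187 and 142 expected at that distance, which is a 3.21-, 4.32-, 3.91- and 3.01-fold excess with log2 counting SDs of 0.044 to 0.065. In every map it ranked first of the 401 pairs at that distance, and its excess was larger in the brain maps than in the forelimb maps. A further pair with the same end bin, 120430001 and 120650001 at 220 kb, had 398, 363, 322 and 187 contacts and a 2.37-, 2.58-, 2.33- and 2.21-fold excess.

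Another group of spots lay in the first sub-interval. The pair 120220001 and 120370001, 150 kb apart, had 793, 677, 647 and 649 contacts in wild-type forelimb, wild-type forebrain, wild-type midhindbrain boundary and stop-cassette forelimb. Its excess was 2.65-, 2.70-, 2.55- and 3.13-fold, the highest of 405 pairs at that distance in each map and largest in stop-cassette forelimb. The pair 120280001 and 120350001, 70 kb apart, had 1079, 1073, 1014 and 988 contacts and a 2.26-, 2.41-, 2.26- and 2.54-fold excess, again first of 413 pairs in each map. From 120220001 a contact also reached 120400001, the edge of the second sub-interval, with 822, 674, 688 and 611 contacts and a 2.39-, 2.22-, 2.3- and 2.48-fold excess. The last of the 6 highest pairs spanned nearly the whole interval. It joined 120210001 with 120650001 over 440 kb, with 178, 178, 163 and 137 contacts and a 2.36-, 2.28-, 2.25- and 2.45-fold excess.

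The lowest pairs lay at the end bin and between the sub-intervals. The pair 120610001 and 120660001, 50 kb apart, had 284, 296, 309 and 222 contacts in the same order of maps, or 0.630, 0.636, 0.643 and 0.663 of the expected signal. Between the sub-intervals, 120310001 and 120490001 had 157, 119, 146 and 118 contacts, or 0.753, 0.595, 0.745 and 0.752 of the expected signal, lowest in wild-type forebrain. The pair 120350001 and 120560001 had 179, 157, 171 and 113 contacts, or 0.737, 0.689, 0.775 and 0.682 of the expected signal. The pair 120300001 and 120660001 had 97, 100, 99 and 83 contacts, or 0.728, 0.706, 0.716 and 0.782 of it. These depletions were smaller than the excesses above, since no pair fell to 0.5 of the expected signal. Counted from the highest pair of the map at the same distance, 120610001 with 120660001 ranked 391 to 397 of 415. The other pairs, in the order given, ranked less low, at 307 to 359 of 402, 293 to 336 of 399 and 244 to 268 of 384.

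The bin at 120650001, the second to last of the interval, recurred in 3 of the 6 highest pairs. It was taken as a viewpoint after its values were seen, so its profile is a description. Its contacts at 30 kb, with 120620001, were below expected at a log2 of -0.15, -0.24, -0.11 and -0.11, with counting SDs of 0.046 to 0.057. At 60 kb, with 120590001, they were close to expected at 0.02, 0.07, 0.12 and -0.06. They rose to 1.68, 2.11, 1.97 and 1.59 at 120460001 in wild-type forelimb, wild-type forebrain, wild-type midhindbrain boundary and stop-cassette forelimb. They sank again to 0.16, 0.07, 0.05 and 0.13 at 120310001, and then rose a second time to 1.24, 1.19, 1.17 and 1.29 at 120210001. The profile thus had a pair of separate maxima, 190 kb and about 440 kb away, with a gap near the expected level between them.

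The order of the maps differed between these maxima. With bins 21 to 30 of the interval the viewpoint had 1.22 in wild-type forelimb, 1.5 in wild-type forebrain, 1.33 in wild-type midhindbrain boundary and 1.09 in stop-cassette forelimb, with counting SDs of 0.021 to 0.031. With the first 10 bins it had 0.91, 0.74, 0.78 and 0.99, with counting SDs of 0.038 to 0.045. Wild-type forebrain was highest in the nearer block and lowest in the farther one, and stop-cassette forelimb the reverse. In bins 11 to 20 the values lay closer, at 0.43, 0.48, 0.43 and 0.46. The stripe was narrow on its outer side, since the neighbouring end bin 120660001 had 0.46, 0.58, 0.57 and 0.41 with bins 21 to 30. On its inner side, the bin at 120640001 had 0.84, 1.04, 0.92 and 0.75 with the same bins.

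**Figure D4:**
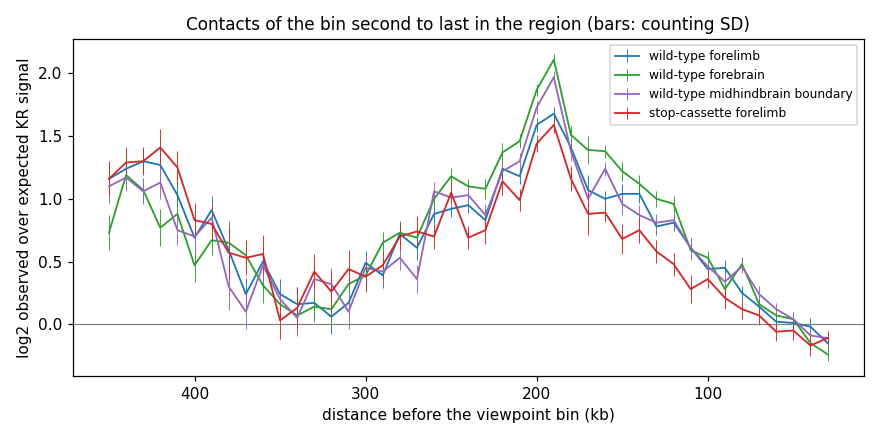
Log2 observed over expected KR signal of the bin second to last in the interval with each bin before it, plotted against the distance in kb, for the 4 maps, with bars of 1 counting SD. All maps peak at 190 kb, with wild-type forebrain highest at 2.11 and stop-cassette forelimb lowest at 1.59, and rise again beyond 400 kb.

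The share of contacts that stayed inside the interval was similar in the 4 maps. Of the contacts at 30 kb or more made by its bins, 42.0% stayed inside in wild-type forelimb, 40.1% in wild-type forebrain, 41.1% in wild-type midhindbrain boundary and 40.5% in stop-cassette forelimb. Per bin the share was highest at 120220001 in the wild-type maps, at 70.1%, 69.1% and 69.2%. In stop-cassette forelimb it was 67.1% there and highest at 120350001 and 120360001, at 68.6%. The share declined towards the end, to 47.1%, 49.2%, 47.1% and 43.9% in the 4 maps at 120650001. It dropped further to 32.0%, 33.4%, 34.5% and 32.3% at 120660001. The bins at the start have no captured neighbours before them, and the part of this edge in the level of the share was not tested.

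In the 4 comparisons of maps that were made, these shares differed by 0.828 to 1.90 percentage points. Stop-cassette minus wild-type forelimb gave -1.48 points (adjusted p = 7.5e-70, two-sided Fisher's exact test with Benjamini-Hochberg adjustment over 28 tests), and -0.28 points when contacts from 10 kb were counted. Wild-type forelimb exceeded wild-type forebrain by 1.90 points (adjusted p = 1.3e-130, Fisher's exact test), and by 1.13 points from 10 kb. It exceeded wild-type midhindbrain boundary by 0.828 points (adjusted p = 4.7e-26, Fisher's exact test), a difference that was 0.257 points without the 10 bins next to the start and reversed to -0.42 points from 10 kb. Wild-type midhindbrain boundary exceeded wild-type forebrain by 1.07 points (adjusted p = 6.3e-42, Fisher's exact test), and by 0.61 points from 100 kb. With counts of this size most intervals of the captured region passed, namely 6, 5, 7 and 5 of 7 in these 4 comparisons. The other 6 intervals differed by -4.72 to 0.239 points between the forelimb maps, -3.10 to 1.57 between wild-type forelimb and forebrain, -2.38 to 1.51 between wild-type forelimb and midhindbrain boundary, and -0.835 to 0.143 between the brain maps. The differences of the interval lay beyond that range in the comparison of forelimb with forebrain and in that of the brain maps.

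Single bin pairs were compared by exact binomial tests over all pairs of the captured region 30 kb to 1 Mb apart, with a call at an adjusted p under 0.05 and a 2-fold difference. All 990 pairs of the interval at 30 kb or more were tested in each comparison. Between stop-cassette and wild-type forelimb, 0 of the 990 pairs were called in the exact binomial test, against 0.0282% of all pairs, and 107 (10.8%, against 9.45% of all pairs) had an unadjusted p under 0.05. Between wild-type forelimb and forebrain the count was 0 in the same test, against 0.0198% of all pairs, with 164 (16.6%, against 8.97% of all pairs) at an unadjusted p under 0.05. Wild-type forelimb and midhindbrain boundary likewise gave 0, against 0.0621%, with 99 (10.0%, against 10.3% of all pairs) at an unadjusted p under 0.05. The brain maps gave 0 in this test, against 0.0113%, with 119 (12.0%, against 7.21% of all pairs) at an unadjusted p under 0.05. At these background shares fewer than 1 call among 990 pairs would match the rate of the whole map, so the counts of 0 do not set the interval apart. The unadjusted shares are not matched in distance, since the pairs of the interval lie at most 460 kb apart and all pairs up to 1 Mb.

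Between the forelimb maps no pair of 10 kb bins passed the adjusted p with the 2-fold limit dropped and KR factors kept, where 0.0762% of all pairs did. In other settings pairs passed below 2-fold, with a smallest adjusted p inside the interval of 5.1e-10 without KR factors, 9.4e-05 in bins joined to 20 kb and 1.3e-15 in bins joined to 50 kb (exact binomial test). The pair with the smallest p was 120410001 and 120460001, with 777 contacts against 1270 and a log2 ratio after scaling of -0.26 (adjusted p = 0.0747, exact binomial test). The spot between 120460001 and 120650001 had a log2 ratio of -0.09 (adjusted p = 0.831, exact binomial test). Without the KR factors in the expected share its log2 ratio was -0.27 (adjusted p = 0.0446, exact binomial test). The 2 highest spots of the first sub-interval were not separated either, with log2 ratios of 0.24 for 120220001 and 120370001 (adjusted p = 0.193, exact binomial test) and 0.17 for 120280001 and 120350001 (adjusted p = 0.329, exact binomial test). The median log2 ratio of the 990 pairs was 0.02, against 0.01 over all pairs tested.

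Between wild-type forelimb and forebrain, 5 pairs passed the adjusted p without the 2-fold limit, 2 higher and 3 lower in forelimb, where 0.381% of all pairs passed. All 3 lower pairs ended at 120650001. They were the spot with 120460001 at a log2 ratio of -0.43 (adjusted p = 5.9e-07, exact binomial test), the pair with 120490001 at -0.39 (adjusted p = 0.00156, exact binomial test) and the pair with 120450001 at -0.29 (adjusted p = 0.0261, exact binomial test). The 2 higher pairs were 120260001 with 120400001, at 566 against 380 contacts and a log2 ratio of 0.42 (adjusted p = 0.00896, exact binomial test), and 120410001 with 120490001, at 930 against 686 contacts and 0.29 (adjusted p = 0.0283, exact binomial test). When the counting variance was inflated by the factor seen over all pairs (1.48), the spot with 120460001 was the 1 pair that passed. Its adjusted p was 5.0e-04 in a normal approximation to the binomial test, where 0.0706% of all pairs passed. Relative to counting variance the factor was 1.96 for the pairs of the interval, above that of all pairs. In size their log2 ratios were smaller, with a median absolute value of 0.12 against 0.17 over all pairs. The pairs of the interval lie at most 460 kb apart and all pairs up to 1 Mb, so these values are not matched in distance. Inside the interval the median log2 ratio was 0.07 against 0.00 over all pairs tested, with 652 of the 990 pairs higher in forelimb.

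Between wild-type forelimb and midhindbrain boundary, 4 pairs passed without the 2-fold limit, where 0.681% of all pairs passed, so the interval held a smaller share than the map. The spot between 120460001 and 120650001 was lower in forelimb at a log2 ratio of -0.29 (adjusted p = 0.0122, exact binomial test). Its adjusted p became 0.338 with the inflated variance (normal approximation to the binomial test), where 0 of the 990 pairs and 0.0339% of all pairs passed. Without KR factors 1 pair reached the 2-fold call, where 0.102% of all pairs did, namely 120230001 with 120580001 at 101 against 48 contacts and a log2 ratio of 1.02 (adjusted p = 0.00864, exact binomial test). The 3 pairs that were higher in forelimb were 120250001 with 120450001, 120260001 with 120320001, and 120300001 with 120360001, at log2 ratios of 0.56, 0.31 and 0.28. Between midhindbrain boundary and forebrain the 1 pair that passed without the 2-fold limit, where 0.224% of all pairs did, was 120370001 with 120440001. It had 659 contacts against 479 and a log2 ratio of 0.40 (adjusted p = 0.00462, exact binomial test). With the inflated variance 0 of the 990 pairs and 0.0935% of all pairs passed. The spot between 120460001 and 120650001 had a log2 ratio of -0.14 between these brain maps (adjusted p = 0.615, exact binomial test). The 4 comparisons share maps, so their values are not independent.

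The pattern of enriched and depleted pairs was shared by the maps. Across the 990 pairs the Pearson correlation of log2 observed over expected was 0.901 between the forelimb maps, 0.906 between wild-type forelimb and forebrain, 0.896 between wild-type forelimb and midhindbrain boundary, and 0.911 between the brain maps. Over all 17402 pairs of the maps at these distances it was 0.875, 0.900, 0.89 and 0.918. In the adjacent interval it was higher, at 0.923, 0.923, 0.942 and 0.926. At the opposite end it was 0.462, 0.572, 0.561 and 0.638, where the SD of the values was lower and the contacts per pair were fewer. Pairs share bins, so these correlations are descriptions.

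Levels in the distance bands from 30 kb differed between maps by at most 0.20 on the log2 scale. Scaled to 1000000 contacts at 30 kb or more of the map, a pair at 310 to 400 kb had 21.4 contacts in wild-type forelimb, 18.8 in wild-type forebrain, 19.8 in wild-type midhindbrain boundary and 20.9 in stop-cassette forelimb, with counting SDs of 0.17 to 0.21. The log2 ratio of wild-type forelimb over wild-type forebrain in that band was 0.18, the largest of the 4 comparisons. The ratio of stop-cassette over wild-type forelimb was -0.03, and became 0.10 on KR signal over the map mean, so its direction depended on the scaling.

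The number of raw contacts per bin differed locally between the forelimb maps, in ways that KR balancing removes. Scaled to the sum over the bins of a map, in which a contact between different bins counts in both, the log2 ratio of stop-cassette over wild-type forelimb was 0.04 over the first 10 bins, -0.04 over the middle 27 and -0.15 over the last 10. Its extremes were 0.24 at 120200001 and -0.41 at 120430001, and no bin of the captured region had a lower ratio. At 120430001 the contacts were 37229 in wild-type forelimb, 31397 in wild-type forebrain, 32767 in wild-type midhindbrain boundary and 23334 in stop-cassette forelimb. Wild-type forelimb was also above the brain maps there, by 0.30 and 0.25 on the log2 scale, while stop-cassette forelimb over these maps was -0.11 and -0.17. The wild-type forelimb map thus differed from each of the other 3 maps more than these differed among themselves. At 120640001 the contacts were 46488, 46184, 46725 and 29734, with a log2 ratio of -0.38 between the forelimb maps. There wild-type forelimb was 0.06 above both brain maps, and stop-cassette forelimb over the brain maps was -0.32 and -0.33, below all of the wild-type maps. The viewpoint bin 120650001 had a ratio of -0.26. Scaled to the number of contacts of the map instead, the ratios between the forelimb maps all shift by -0.06, so the sign over the first 10 bins depends on the scaling. Over all 420 bins the ratio lay between -0.18 and 0.20 from the 5th to the 95th percentile. The part of the strain tag or library series in these bins was not tested.

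**Figure D5:**
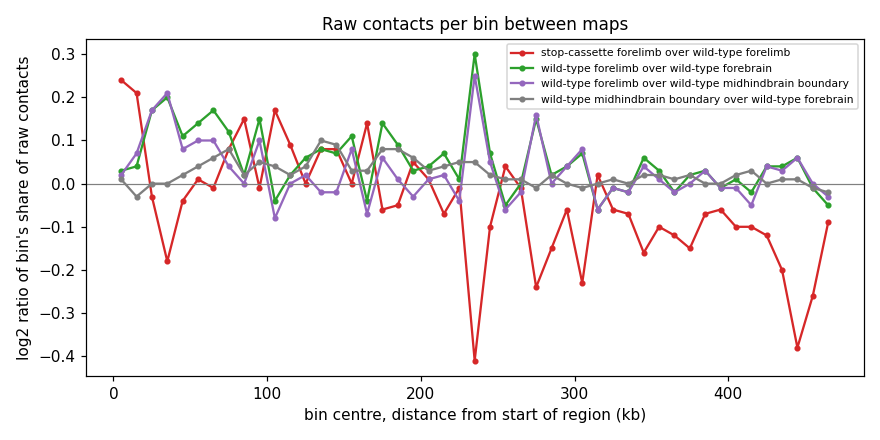
Log2 ratio of each bin's share of the raw contacts of a map, plotted against the bin centre in kb from the start of the interval, for the 4 comparisons. The comparison of the forelimb maps dips to -0.41 at 235 kb and -0.38 at 445 kb, the first mirrored by peaks of wild-type forelimb over both brain maps (0.30 and 0.25), while midhindbrain boundary over forebrain stays between -0.03 and 0.10.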

How the data were processed

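Capture Hi-C was measured in 11 libraries of 4 groups, taken from titles, tissues and genotypes. Per the labels, chromatin was cut with DpnII and captured with custom baits, and the map names there record HiCUP, a mapping quality of 30 and merged replicates. The submitters' processing notes list the build mm9, Bowtie2 2.3.4.1 and Juicer 1.7.6, without their roles. The authors deposited a raw map of whole-number contact counts and a balanced map of KR signal per group, in bins of 10 kb. The deposited signal equalled the count over the product of its bins' factors (largest relative deviation 1.6e-07), with equal sums for all bins. No replicate counts could be used, so no dispersion was estimated. Intervals and counting SDs cover counting error only, and read pairs are not independent molecules.

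Python 3.11.15, numpy 2.4.6 and scipy 1.17.1 were used. Expected signal was the mean of a distance stratum over the whole map. Insulation minima were the lowest score within 50 kb, lying at least 0.2 under the smaller of both flanking maxima within 200 kb. Two-sided exact binomial tests (smaller tail doubled) used the distance stratum and KR factors for the expected share, at least 20 counts over both maps, a prior count of 0.5 for log2 ratios, and Benjamini-Hochberg adjustment over all pairs 30 kb to 1 Mb apart. Fisher's exact tests compared contacts staying inside with those leaving, for 7 intervals and 4 comparisons. The test of bin pairs was tested on simulated data. Where its variance was inflated, p came from a normal approximation instead of the exact binomial. Pairs named were the 6 highest and 4 lowest in mean log2 observed over expected with at least 20 counts in every map, at least 20 kb from one already named, the smallest p of each comparison, and pairs that passed a test. The members, lists and tests were chosen with earlier results of these data known. Alternatives covered distances, KR factors, variance, count minimum, bin size, square size, scaling and edge bins.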

Additional observations from a re-analysis of the deposited data

How the results depend on the processing

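No paired analysis was possible because the maps were merged over replicates before deposition, so neither a block nor a left-out library could be fitted. Depth limits single pairs, whose counts reach down to 15 in stop-cassette forelimb. Counting from 10 kb, the difference in the share kept inside between wild-type forelimb and midhindbrain boundary reversed to -0.42 points, and the cause was not tested. From 10 kb the difference in this share was -0.28 points between the forelimb maps and 1.13 points between wild-type forelimb and forebrain. It was 0.61 points between the brain maps from 100 kb, and 0.257 points between wild-type forelimb and midhindbrain boundary without the 10 bins next to the start (0.552 on KR signal). In the comparisons other than that of wild-type forelimb with midhindbrain boundary, the direction and the side of the threshold stayed the same under the alternatives run, while the size moved by over 1.5 times. Without the fold limit 5 of the 990 pairs were called for forelimb over forebrain, against 0.381% of all pairs. There were 4 for forelimb over midhindbrain boundary (0.681% of all pairs) and 1 for midhindbrain boundary over forebrain (0.224%). Without KR factors 1 pair was called for forelimb over midhindbrain boundary (0.102% of all pairs). With no fold limit and inflated variance together, 1 was called for forelimb over forebrain (0.0706% of all pairs). This last alternative was chosen after seeing the data, as was the second scaling of raw contacts per bin. Decay slopes of wild-type forelimb, forebrain, midhindbrain boundary and stop-cassette forelimb became -1.0, -1.05, -1.03 and -0.97 from 100 to 300 kb, -0.79, -0.83, -0.83 and -0.76 from 30 to 450 kb, and -0.82, -0.82, -0.82 and -0.85 without the 10 bins next to the start. On raw counts they were -0.85 in wild-type and -0.86 in stop-cassette forelimb, and without the 2 thinnest bins -0.87 in midhindbrain boundary. Insulation minima inside numbered 2, 1, 2 and 1. They became 1, 2 and 1 in the wild-type maps with a 50 kb square, 0, 0, 0 and 0 with a 200 kb square, and 1 on raw counts in midhindbrain boundary. With the 200 kb square the edge at 120400001 is the first that can be scored, and it could not be called in any map. Correlations between maps, in the order of the comparisons in the report, became 0.939, 0.961, 0.961 and 0.967 on raw counts and 0.952, 0.951, 0.948 and 0.965 in 20 kb bins. Without the 10 bins next to the start they were 0.860 for the forelimb maps and 0.925 for forelimb and forebrain. At 310 to 400 kb the log2 ratios became 0.06, 0.08, 0.07 and 0.01 when scaled to contacts inside, and 0.10 for the forelimb maps on KR signal.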
